A study of Rattus norvegicus with 29 samples.

Results

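Chromatin accessibility after METH exposure was compared with that after saline in the nucleus accumbens (NAc), using the 8 NAc libraries among the 29 ATAC-seq libraries of the study. The 8 libraries were chosen by their sample titles, and consisted of 4 from METH-exposed and 4 from saline-treated rats. The animals were adult male Sprague-Dawley rats with no genetic change. They received 4 intraperitoneal injections of methamphetamine hydrochloride at 10 mg/kg, or of saline at 1 mL/kg, spaced 2 h apart, and tissue was taken the day after the last injection as a punch of a frozen brain slice. The remaining 21 libraries came from 2 parts of the hippocampus, Ammon's horn (CA) and the dentate gyrus (DG), and from the subventricular zone (SVZ) that borders the striatum.

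The NAc is the ventral part of the striatum, and most of its neurons are GABAergic medium spiny neurons that carry dopamine receptors of the D1 or D2 class. METH enters dopamine terminals, releases dopamine into the NAc, and is reinforcing through this action. In ATAC-seq a transposase inserts adapters where DNA is free of nucleosomes, so the read count of an open chromatin region (OCR) measures how accessible a promoter or enhancer is in the sampled nuclei. A punch holds many cell types, so fewer nuclei of a type and lower accessibility in each nucleus cannot be told apart.

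Counts were available for 98237 OCRs with a median width of 662 bp, at 10.7 to 13.8 M counts per NAc library. No OCR was a differentially accessible region (DAR; fold change above 1.5 with a false discovery rate (FDR) under 0.001) in NAc by edgeR's quasi-likelihood test, which is 0% of OCRs in either direction, and no FDR was under 0.05. In simulated counts with less replicate spread than these data, the DAR limits called 9 of 100 changes of 2-fold and 97 of 100 of 4-fold. Changes of about 2-fold could thus be missed. How many changes of 4-fold would be called at the larger spread of these data was not tested. By the same test without adjustment, 1010 OCRs (1.03%) were more accessible and 1394 (1.42%) less accessible after METH at p under 0.05, 2.45% together, and DESeq2 gave 0 DARs with 1517 and 1594 OCRs at this limit. With no effect of treatment, a calibrated test would mark OCRs at this limit at a rate of 0.05, which the 2.45% did not reach. The shares given below for clusters, windows and differences between regions did not reach that rate either. After correction with 5 RUVr factors of unwanted variation, 20 OCRs (0.0204%) were DARs, each of them lower. At an FDR under 0.05 with no fold limit, that setting called 2029 OCRs, 307 higher and 1722 lower. How many false calls it makes was not tested. The study, at the same DAR limits and after RUVr, reported many more DARs in NAc, most of them less accessible. The source of this difference was not tested. The higher OCRs were 42.0% of those at an unadjusted p under 0.05 with upper-quartile library sizes and 55.4% with TMM sizes. The direction of the excess thus depended on the scaling. The estimated fold change was above 1.5 for 4.23% of OCRs and below its inverse for 8.79%, against a median standard error (SE) of 0.39 on the log2 scale. The 4 METH libraries lay above all 4 saline libraries in 1017 OCRs (1.04%) and below them in 1880 OCRs (1.91%), 2.95% together. Without METH replicate 3, 0 OCRs (0%) were DARs, and 0.778% were higher and 1.29% lower at the unadjusted limit, 2.07% together. The fold change was then above 1.5 for 3.89% and below its inverse for 9.15%, and the groups were apart in 2.11% (higher) and 4.04% (lower), 6.14% together. With no effect of treatment, 4 against 4 libraries would be apart in either direction at a rate of 0.0286, and 3 against 4 at 0.0571. The shares of 2.95% and 6.14% were near these rates, which are higher with fewer libraries. At the unadjusted limit, 1112 OCRs were shared with the 2404 found with the 8 libraries.

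One library, METH replicate 3, stood apart from its group. Its log2 counts per M (CPM) correlated with those of the other 7 NAc libraries at a mean r of 0.837, while each of those 7 had a mean r of 0.907 to 0.920 with the rest of the NAc. The same library had a mean r of 0.878 with SVZ and 0.840 with DG, and the other NAc libraries had 0.861 to 0.901 with SVZ and 0.690 to 0.821 with DG. It was thus closest to SVZ, within the range of the other NAc libraries. It was about as close to DG as to the rest of the NAc, against its label. Many of the values below are given with and without it. The correlations are across OCRs, which are not independent replicates.

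The OCRs that mark NAc showed where this library differed. In the saline libraries, 4576 OCRs were NAc-specific, with at least a doubling over the mean of DG, CA and SVZ (log2 fold change above 1, FDR under 0.01). They held 3.01%, 2.17%, 4.08% and 4.60% of the counts of saline replicates 1 to 4, and 2.54%, 3.09%, 0.883% and 4.59% of those of METH replicates 1 to 4. METH replicate 3 was the lowest of the 8 and close to the hippocampal libraries, which held 0.291% to 0.768%, whereas the SVZ libraries held 1.73% to 4.25%. It had the lowest CPM of the 8 NAc libraries in 4161 of the 4576 OCRs (90.9%), against 20.5% of OCRs in the whole table. The mean share was 3.47% ± 1.09 in saline and 2.78% ± 1.53 in METH libraries (SD, n = 4), and it was 3.41% ± 1.06 (SD, n = 3) in METH libraries other than replicate 3. The list was chosen on the same saline libraries, which favours high saline values, so these shares are a description and were not tested.

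**Figure D1:**
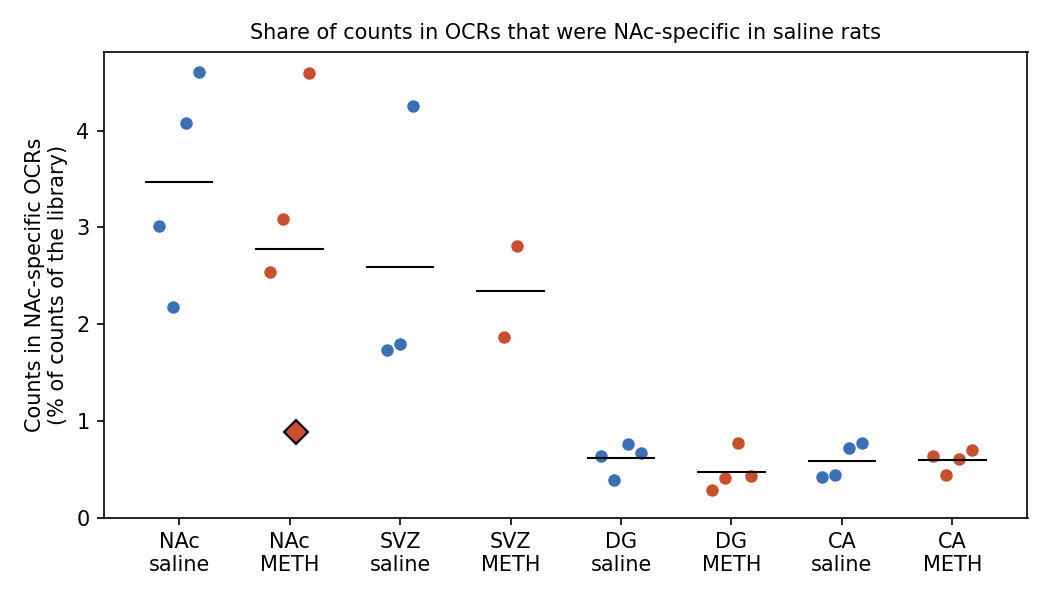
Percentage of each library's OCR counts (vertical axis) that fell in the 4576 OCRs that were NAc-specific in saline rats, by region and treatment; points are libraries, lines are group means and the outlined diamond is METH replicate 3 of NAc. At 0.883%, METH replicate 3 lies below the other NAc libraries (2.17% to 4.60%) and next to the DG and CA libraries (0.291% to 0.768%).

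Further lists were built without any NAc library. The 2404 OCRs that were more accessible in SVZ than in hippocampus in saline rats held 1.61%, 1.08%, 2.08% and 2.46% of the counts of the saline NAc libraries 1 to 4 and 1.43%, 1.69%, 0.505% and 2.51% of the METH libraries. The groups overlapped, with METH replicate 3 lowest, and the difference of -0.277 percentage points did not exceed the spread (two-sided exact permutation test, p = 0.6, both before and after Benjamini-Hochberg adjustment over 2 lists). Their median log2 fold change of -0.26 became 0.03 when METH replicate 3 was left out. It was 0.19 in batch 1 (replicates 1 and 2) and -0.66 in batch 2 (replicates 3 and 4, with this library). These batches were read from the letter case of a tag in the peak names, and what they stand for is not given.

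The 306 OCRs that were more accessible in hippocampus than in SVZ held little of the NAc signal, with a median of 1.17 CPM. Their share was 0.0426%, 0.0753%, 0.0780% and 0.0452% in saline replicates 1 to 4, and 0.0326%, 0.0444%, 0.0416% and 0.0427% in METH replicates 1 to 4. Saline replicates 2 and 3 were high, and saline replicates 1 and 4 lay within or near the METH range. METH replicate 3, at 0.0416%, held no more of this hippocampal signal than the other METH libraries, while the DG and CA libraries held 0.0610% to 0.385%. The METH mean was 0.0403% ± 0.00530 (SD, n = 4) and the saline mean 0.0603% ± 0.0190 (SD, n = 4), a difference of -0.0199 percentage points (two-sided exact permutation test, p = 0.0857, adjusted 0.171). It was -0.0204 without METH replicate 3 (exact permutation p = 0.171). Chosen with TMM library sizes, the list held 186 OCRs and the difference was -0.0117 percentage points (exact permutation p = 0.257). Their median log2 fold change was -0.66, and it was -0.74 without METH replicate 3, -0.74 in batch 1 and -0.66 in batch 2. Of the 306, 46 (15.03%) were lower and 0 higher at an unadjusted p under 0.05 (edgeR), against 1.42% and 1.03% of OCRs in the table. METH lay below saline with no overlap in 26 and above it in 0, which are 8.50% and 0% of the list against 1.91% and 1.04% of OCRs in the table. The lowest of the 10 accessibility classes described below has a median of 1.07 CPM, near that of this list. In that class 3.35% were lower and 0.672% higher at this p, and 3.53% and 0.753% had no overlap. The OCRs of the list share the same libraries and are not replicates.

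The NAc-specific OCRs themselves had a median log2 fold change of -0.34 with METH replicate 3 and -0.05 without it. They were lower by over 1.5-fold in 25.02% of cases with this library and in 9.31% without it, where the shares over the whole table were 8.79% and 9.15%. In batch 1, which does not hold this library, the median was 0.09, and in batch 2 it was -0.71. Relative to the mean of the 4 saline libraries, the median difference in log2 CPM over these OCRs was -0.32, -0.06, -1.76 and 0.27 in METH replicates 1 to 4, and -0.10, -0.42, 0.20 and 0.36 in saline replicates 1 to 4. METH replicates 1, 2 and 4 thus lay inside the saline range and replicate 3 far below it.

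The shift by OCR width was a small tilt from narrow to wide OCRs. The median log2 fold change was -0.07 in the 9736 OCRs under 400 bp, -0.05 in the 44489 of 400 to under 700 bp, 0.01 in the 27449 of 700 to under 1000 bp, 0.05 in the 16139 of 1000 to under 2000 bp and 0.06 in the 424 of 2000 bp or more. The difference between the widest and the narrowest class was 0.13, and 0.14 without METH replicate 3, 0.12 in batch 1 and 0.14 in batch 2. Without METH replicate 1 it was 0.05. The same difference taken in single libraries against the saline mean was 0.04, 0.23, -0.15 and -0.15 in saline replicates 1 to 4, and 0.34, 0.11, 0.11 and -0.08 in METH replicates 1 to 4. METH replicate 4 lay with the saline libraries of its batch, and METH replicate 1 was the highest of the 8.

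As a share of counts, the OCRs of 2000 bp or more took 2.32%, 2.36%, 2.26% and 2.24% of the counts of saline replicates 1 to 4 and 2.43%, 2.40%, 2.44% and 2.28% of those of METH replicates 1 to 4. METH replicate 4 lay within the saline range and the others above it, and the means were 2.39% ± 0.0740 (SD, n = 4) and 2.29% ± 0.0542 (SD, n = 4). The two-sided exact permutation test gave p = 0.0857, and 0.429 after adjustment over the 5 width classes. The difference was 0.0777 percentage points in batch 1 and 0.109 in batch 2. Without METH replicate 3, the highest library, it was 0.0755 (exact permutation p = 0.171). The class of 1000 to under 2000 bp took 48.3%, 49.8%, 44.6% and 45.0% with saline and 50.7%, 48.2%, 48.6% and 44.5% with METH in replicates 1 to 4, with an exact p of 0.6 (adjusted 0.75). Replicates 3 and 4 of saline and replicate 4 of METH, which are of batch 2, were the lowest. The narrower classes gave exact p from 0.314 to 0.971, none under 0.75 after adjustment.

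Mean accessibility showed a steeper gradient. OCRs were divided into 10 classes of equal size by their mean log2 CPM over the 8 libraries, with median levels from 1.07 CPM in the lowest class to 43.2 CPM in the highest. The median log2 fold change was -0.22 in class 1, -0.07 in class 2, between -0.05 and 0.00 in classes 3 to 8, 0.04 in class 9 and 0.07 in class 10. Without METH replicate 3 it was -0.35 in class 1, -0.18 in class 2 and 0.06 in class 10, so the lower level of the weak OCRs was also seen without this library. The difference between class 10 and class 1 was 0.29 with the 8 libraries, 0.40 in batch 1, 0.24 in batch 2 and 0.41 without METH replicate 3, but 0.12 without METH replicate 1 and 0.16 without saline replicate 3. With classes set by the 21 libraries of the other regions, the medians were -0.24 in class 1 and 0.06 in class 10, and -0.05 and 0.05 without METH replicate 3. Class 1 of this division was 0.08 in batch 1 and -0.52 in batch 2. Class 2 was -0.14 with the 8 libraries and -0.13 without METH replicate 3, and classes 3 to 5 went from -0.06, -0.04 and -0.03 to -0.11, -0.10 and -0.09, so leaving out METH replicate 3 raised the median of class 1, changed that of class 2 little and lowered those of classes 3 to 5.

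**Figure D2:**
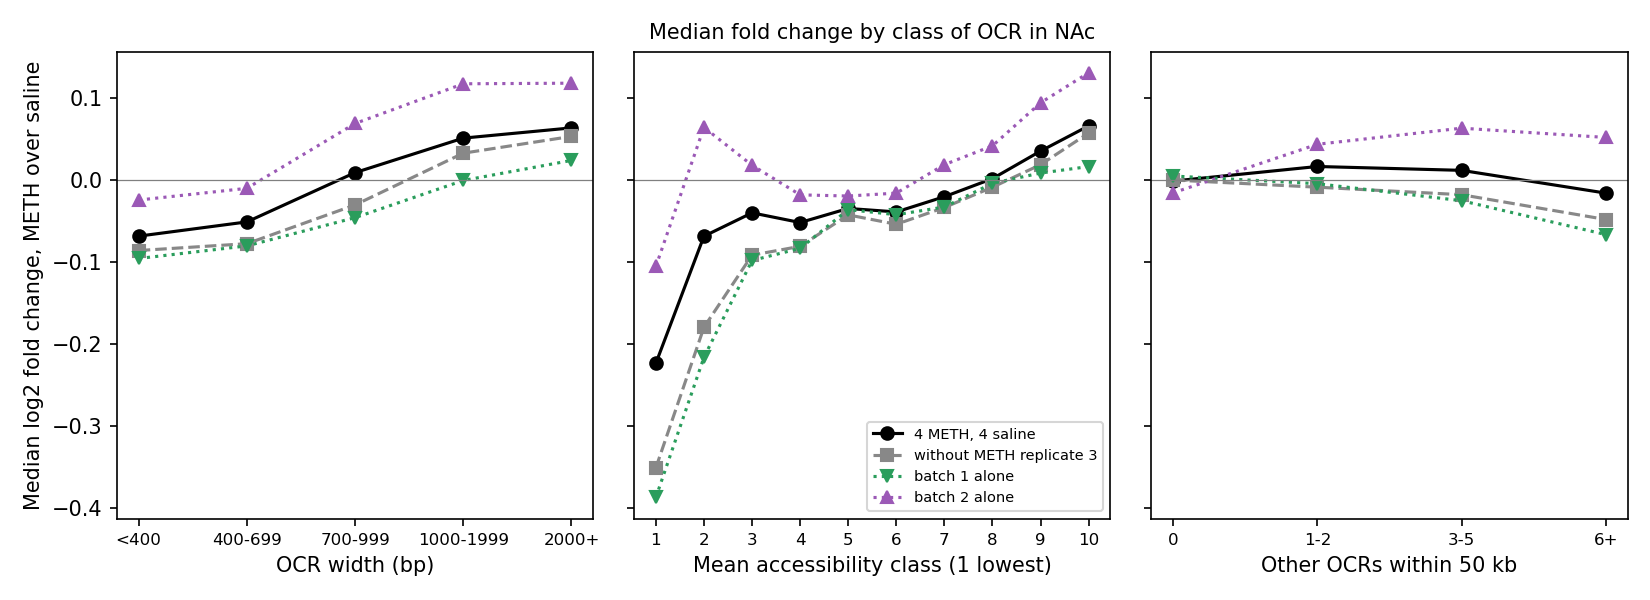
Median log2 fold change of METH over saline (vertical axis) in classes of OCRs by width in bp, by mean accessibility (1 lowest, 10 highest) and by the number of other OCRs within 50 kb, for the 8 libraries, without METH replicate 3 and in each batch alone. The medians run from -0.07 to 0.06 over the width classes and from -0.22 to 0.07 over the accessibility classes, while the neighbour classes stay between -0.02 and 0.02 with the 8 libraries.

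The library values of the lowest class did not separate by treatment. Against the saline mean, the median difference in class 1 was -0.16, 0.18, 0.15 and -0.13 in saline replicates 1 to 4, and -0.34, -0.12, 0.03 and -0.17 in METH replicates 1 to 4. Saline replicates 2 and 3, the ones that were high in hippocampal OCRs, were the highest here too, and METH replicate 1 was the lowest; the part of hippocampal OCRs in these values was not tested. In class 10 the differences were 0.11, 0.26, -0.19 and -0.18 with saline and 0.32, 0.08, 0.11 and -0.23 with METH. The top class held 54.3%, 56.2%, 49.0% and 49.5% of the counts of saline replicates 1 to 4 and 58.1%, 53.8%, 54.6% and 48.9% of those of METH replicates 1 to 4. The means of 53.8% ± 3.79 with METH and 52.2% ± 3.55 with saline (SD, n = 4) differed by less than the spread (two-sided exact permutation test, p = 0.6, 0.786 after adjustment over 10 classes). The lowest adjusted p of the 10 classes was 0.786. METH minus saline in the top class was 0.669 percentage points in batch 1 and 2.50 in batch 2, and 1.33 without METH replicate 3 (exact permutation p = 0.743).

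**Figure D3:**
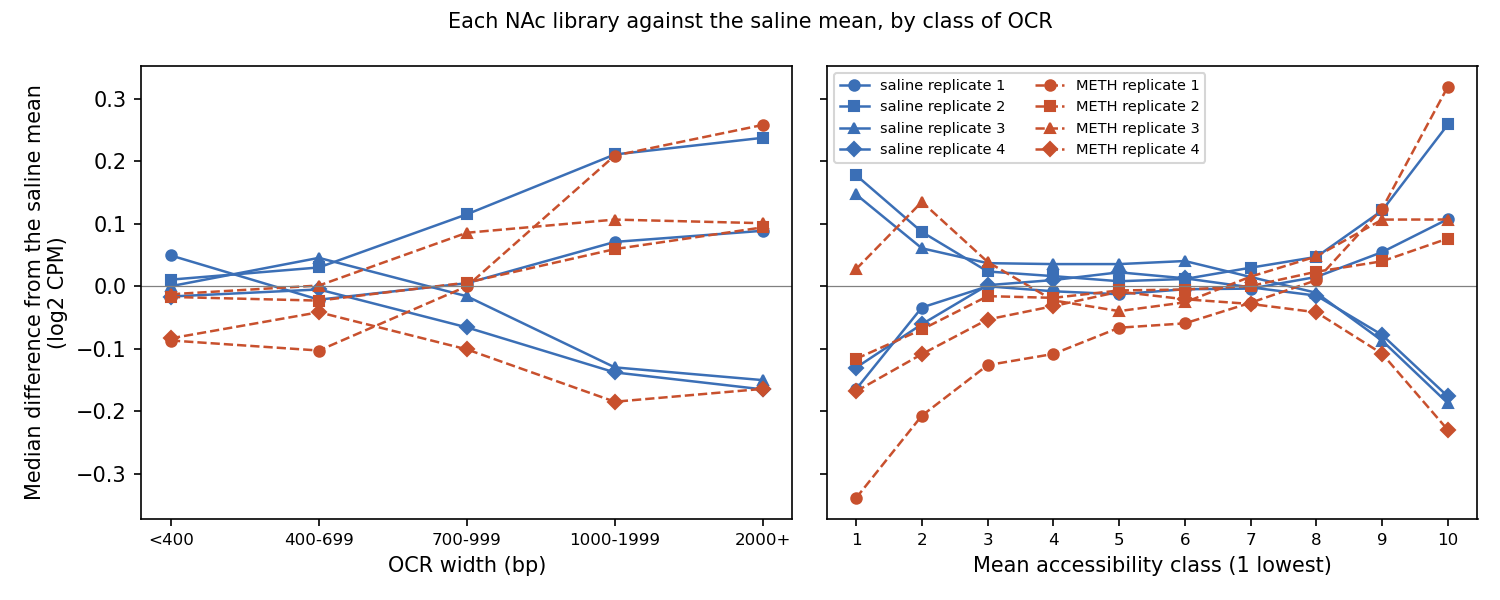
Median difference of each NAc library from the mean of the 4 saline libraries, in log2 CPM, by OCR width in bp (left) and by mean accessibility class (right); solid lines are saline and dashed lines METH libraries. In class 10, saline replicates 3 and 4 and METH replicate 4 lie at -0.19, -0.18 and -0.23, and the other 5 libraries at 0.08 to 0.32.

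Width and accessibility overlapped, since the median width rose from 574.5 bp in accessibility class 1 to 1139 bp in class 10. Within class 10 the median log2 fold change was 0.05 for OCRs of 400 to under 700 bp, 0.07 for 700 to under 1000 bp, 0.07 for 1000 to under 2000 bp and 0.06 for 2000 bp or more. Within class 2 the 261 OCRs of 1000 to under 2000 bp had -0.32, below the -0.04 of the 5873 OCRs of 400 to under 700 bp. Between the same 2 width classes the median also fell in class 1 (-0.22 to -0.27), class 3 (-0.03 to -0.14) and class 5 (-0.04 to -0.08). It rose in class 4 (-0.05 to -0.04), class 6 (-0.04 to -0.01) and class 7 (-0.04 to 0.001). Rises were also seen in class 8 (-0.02 to 0.02) and class 9 (0.01 to 0.05), where OCRs under 400 bp were at 0.03 and 0.08. Without METH replicate 3 the median fell in classes 4, 6 and 7 too, to -0.22, -0.10 and -0.04 at 1000 to under 2000 bp.

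The OCRs past the limits followed accessibility as well. At an unadjusted p under 0.05 (edgeR), 3.35% of class 1 were lower and 0.672% higher, against 1.42% and 1.03% over the table. In class 10, 0.0204% were lower and 0.183% higher. METH lay below saline with no overlap in 3.53% of class 1 and 0.0611% of class 10, and above it in 0.753% and 0.346%. Over the width classes, the share that was lower with no overlap went from 2.25% under 400 bp to 0.905% at 1000 to under 2000 bp, and the share that was higher from 0.822% to 0.824%. Without METH replicate 3 the groups were apart in 4.04% of OCRs (lower) and 2.11% (higher) over the table, and in 7.53% and 1.22% of class 1.

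Genomic clustering was examined first by the number of other OCRs within 50 kb. The median log2 fold change was -0.00 for the 3977 OCRs with no neighbour, 0.02 for the 12854 with 1 to 2, 0.01 for the 23757 with 3 to 5 and -0.02 for the 57649 with 6 or more. The last class had -0.05 and the first 0.00 when METH replicate 3 was left out. OCRs with 6 or more neighbours held 62.5%, 61.5%, 61.8% and 61.9% of the counts of saline replicates 1 to 4 and 61.0%, 61.4%, 62.4% and 61.2% of those of METH replicates 1 to 4. METH replicate 3 lay within the saline range and the other 3 METH libraries below it, and the difference was -0.438 percentage points (two-sided exact permutation test, p = 0.286, 0.495 after adjustment over 4 classes). It was -0.727 without METH replicate 3, where the exact p of 0.0571 is the smallest that 3 against 4 libraries allow, and it was -0.822 in batch 1 and -0.0537 in batch 2. The remaining classes gave exact p from 0.114 to 0.857, none under 0.457 after adjustment.

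Isolated OCRs had larger estimated fold changes in both directions. Of the OCRs with no neighbour, 8.15% were higher and 15.7% lower by over 1.5-fold, against 3.10% and 7.33% of those with 6 or more. They were also less deeply counted, with a median of 3.29 CPM against 4.77 CPM and a median SE of 0.53 against 0.37. Apart from saline with no overlap were 1.08% (higher) and 2.01% (lower) of isolated OCRs and 0.874% and 2.02% of those with 6 or more neighbours, close to the 1.04% and 1.91% of the table.

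Adjacent OCRs tended to shift alike. The Pearson correlation of their log2 fold changes was 0.224 over 9246 pairs under 1 kb apart, 0.116 at 1 to 5 kb, 0.0966 at 5 to 20 kb, 0.0599 at 20 to 100 kb and 0.0607 over 4968 pairs further apart. The values without METH replicate 3 were 0.222, 0.117, 0.0812, 0.0498 and 0.0455. The pairs share libraries and depth, and mean levels of adjacent OCRs correlated at 0.220 under 1 kb. The sign was shared by 58.8% of the closest pairs and 51.6% of the most distant. Of the 1880 OCRs that were lower with no overlap, 340 (18.1%) had another such OCR within 50 kb, while 12.97% of OCRs in the table did. Of the 1017 that were higher, 103 (10.1%) had another, against 6.30% of the table.

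**Figure D4:**
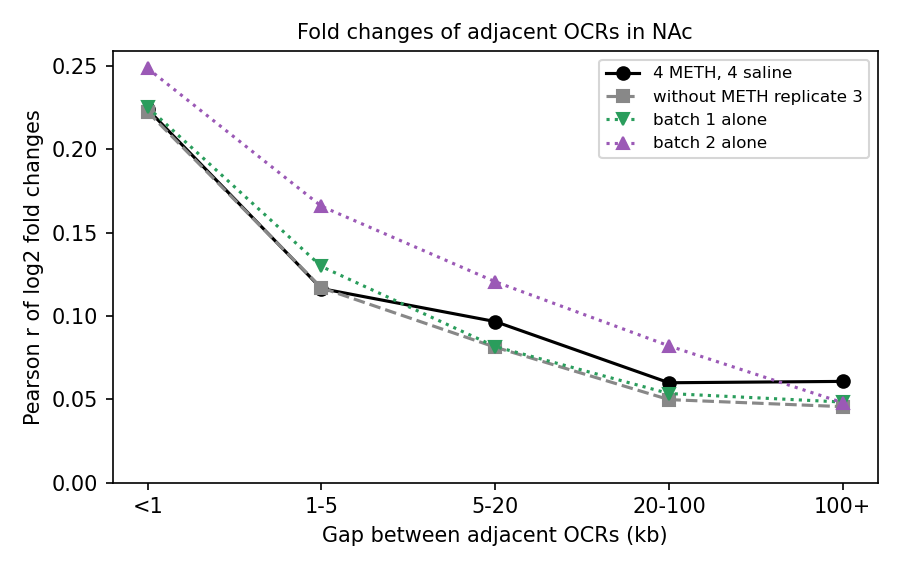
Pearson correlation of the log2 fold changes of adjacent OCRs (vertical axis) by the gap between them in kb, for the 8 libraries, without METH replicate 3 and in each batch alone. The correlation falls from 0.224 under 1 kb to about 0.06 over 20 kb in the 8 libraries, and it is 0.222 under 1 kb without METH replicate 3.

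Counts were next summed over 10410 clusters, each a run of 3 or more OCRs with gaps of at most 10 kb. No cluster passed an FDR of 0.05 (edgeR), and 65 (0.624%) had an unadjusted p under 0.05, 33 higher and 32 lower. The cluster with the lowest p held 4 OCRs on rn6 chromosome 2 from 211120594 to 211136060. Its summed level was 35.3, 26.4, 28.0 and 33.0 CPM in saline replicates 1 to 4 and 14.9, 31.0, 16.2 and 19.8 CPM in METH replicates 1 to 4. METH replicate 2 lay within the saline range and the other 3 below it, and the log2 fold change was -0.61 (SE 0.20) and an FDR of 1.000. Next came 4 OCRs on chromosome 2 from 177840139 to 177857098, which were lower with no overlap. They had 39.0, 25.8, 25.8 and 32.2 CPM with saline and 14.9, 22.3, 16.7 and 23.2 CPM with METH. The log2 fold change of -0.68 (SE 0.23) became -0.60 when METH replicate 3 was left out. The third held 3 OCRs on chromosome 8 from 7720991 to 7730741, with 7.21, 5.70, 4.23 and 3.62 CPM in saline and 8.16, 7.75, 10.7 and 7.93 CPM in METH libraries. These were higher with no overlap, and METH replicate 3 was highest. The log2 fold change of 0.73 (SE 0.25) became 0.62 when METH replicate 3 was left out.

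Over 2468 windows of 1 Mb with 5 or more OCRs, 0 passed an FDR of 0.05 (edgeR) and 11 (0.446%) had an unadjusted p under 0.05, of which 8 were higher. The window with the lowest p held 26 OCRs on chromosome 7 between 102146457 and 102990763. It had 159.9, 176.1, 142.8 and 142.7 CPM in saline replicates 1 to 4, and 199.8, 208.2, 180.4 and 160.1 CPM in METH replicates 1 to 4. METH replicate 4 alone lay within the saline range, 21 of the 26 OCRs had a positive log2 fold change, and that of the window was 0.24 (SE 0.08). The second, with 28 OCRs on chromosome 13 between 45003246 and 45961903, had a log2 fold change of 0.26, with 23 of 28 OCRs positive. Its CPM was 161.2, 198.2, 160.2 and 156.1 with saline and 225.2, 206.8, 193.6 and 196.4 with METH, so saline replicate 2 lay among the METH libraries. The third, with 92 OCRs on chromosome 16 between 83002334 and 83985890, had 0.07, and its saline range of 1112 to 1383 CPM overlapped the METH range of 1166 to 1461 CPM. The log2 fold changes of these windows without METH replicate 3 were 0.26, 0.29 and 0.07. Chromosome medians lay between -0.02 and 0.01 for the 20 numbered chromosomes and at 0.06 for the 1262 OCRs of chromosome X, a difference that was not tested.

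The single OCRs with the largest fold changes were those with an unadjusted p under 0.05 by edgeR, a mean of 2 CPM or more and no overlap between groups. The limits chose them, so their separation is a description, and their FDR was 1.000. The strongest decrease was at a NAc-specific OCR of 660 bp on chromosome 2 (66689019 to 66689678). It had 14.4, 7.74, 6.89 and 9.40 CPM in saline replicates 1 to 4 and 0.806, 3.14, 0.462 and 2.72 CPM in METH replicates 1 to 4, and a peak was called in 4 saline and 2 METH libraries. The mean fell from 9.61 ± 3.37 to 1.78 ± 1.34 CPM (SD, n = 4). The log2 fold change was -2.41 (SE 0.61), -2.10 without METH replicate 3, -2.47 in batch 1 and -2.33 in batch 2, all of which must be negative in an OCR chosen for groups that do not overlap.

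The other members of this set of 6 lower OCRs had log2 fold changes from -2.14 to -1.96. The OCR on chromosome 8 (82462923 to 82463405) had 9.84, 4.89, 7.36 and 7.09 CPM with saline and 0.705, 3.51, 0.831 and 1.56 CPM with METH. The OCR on chromosome 18 (23039436 to 23039905) was the most even, at 3.90, 4.28, 4.77 and 5.16 CPM with saline and 1.01, 1.48, 0.739 and 1.01 CPM with METH. No METH library and each saline library had a peak there. A second NAc-specific OCR, on chromosome 3 (50951151 to 50951610), had 4.38, 4.58, 4.29 and 5.16 CPM with saline and 0.101, 1.66, 0.831 and 1.87 CPM with METH. The OCR on chromosome 16 (78405062 to 78405728) had 7.69, 6.11, 7.02 and 5.86 CPM with saline and 1.11, 1.94, 1.02 and 2.49 CPM with METH, and the OCR on chromosome 2 from 243916604 to 243917368 had 8.67, 4.69, 4.77 and 4.55 CPM with saline and 1.51, 2.22, 0.831 and 1.24 CPM with METH. METH replicate 3 or replicate 1 had the lowest value at each of the 6. Without METH replicate 3 the 6 log2 fold changes lay between -2.10 and -1.77.

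The 6 higher OCRs had low levels in saline. The first, on chromosome 6 (146648317 to 146649024), had 0.877, 0.917, 0.750 and 1.39 CPM in saline replicates 1 to 4 and 1.61, 3.69, 6.55 and 2.33 CPM in METH replicates 1 to 4. METH replicate 3 was the highest of the METH libraries, and the log2 fold change of 1.84 (SE 0.55) became 1.36 without it. The OCR on chromosome 6 from 11546628 to 11547182 had 0.195 to 1.30 CPM with saline and 3.02, 1.39, 6.74 and 2.10 CPM with METH, and its fold change of 1.82 became 1.21. At the OCR on chromosome 1 (29299456 to 29299973) the values were 1.02 to 1.70 CPM with saline and 4.93, 1.85, 6.28 and 4.12 CPM with METH. METH replicate 3 was the highest in 5 of the 6 higher OCRs.

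The OCR on chromosome 3 (58152089 to 58152951) had 0.779, 1.02, 0.886 and 2.54 CPM with saline and 3.83, 3.51, 8.12 and 2.57 CPM with METH, so saline replicate 4 and METH replicate 4 nearly met. The exception was the OCR on chromosome 9 (89161623 to 89162341), where METH replicate 4 was highest. It had 0.779, 2.55, 1.57 and 0.694 CPM with saline and 3.12, 2.86, 3.88 and 8.86 CPM with METH, and the log2 fold change of 1.75 became 1.83 when METH replicate 3 was left out. The OCR on chromosome 5 (83285494 to 83286023) had 1.00 to 2.05 CPM with saline and 5.24, 3.88, 6.09 and 2.49 CPM with METH, with a peak in 4 METH libraries and 1 saline library. The 6 higher OCRs were in accessibility classes 2 and 3, and none was NAc-specific.

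**Figure D5:**
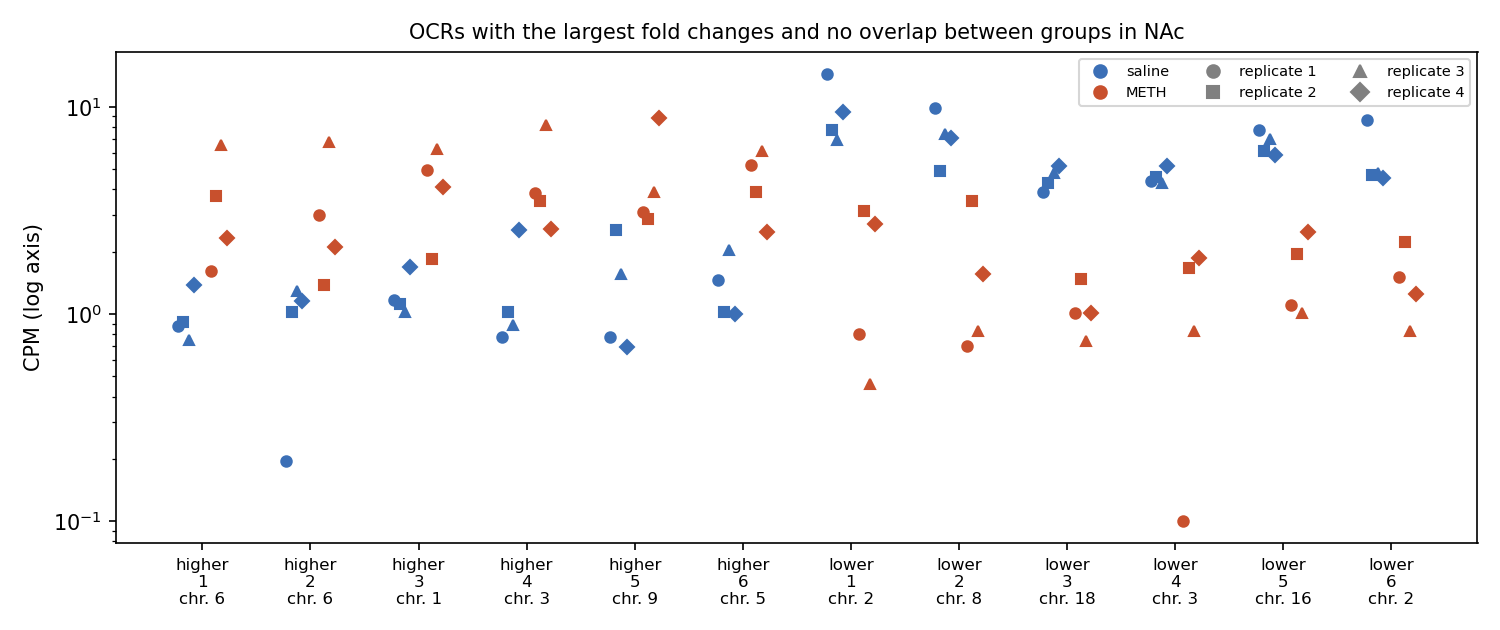
CPM on a log axis of the 6 more and 6 less accessible OCRs with the largest fold changes among those whose groups do not overlap in NAc; colours give the treatment and symbols the replicate. The triangles of METH replicate 3 lie highest in 5 of the 6 higher OCRs, and the lower OCRs fall to between 0.101 and 3.51 CPM with METH.

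The peak lists addressed presence rather than level. Saline replicates 1 to 4 had 61538, 67430, 99514 and 83006 peaks and METH replicates 1 to 4 had 70758, 68845, 67231 and 84275, with 75.1% to 89.7% of a library's peaks overlapping an OCR of the count table. METH replicate 3 had fewer peaks than saline replicates 3 and 4 and METH replicate 4, the other libraries of its batch. The group means differed by less than the spread (two-sided exact permutation test, p = 0.686, 0.914 after adjustment over 4 peak measures). Median fold enrichment over local background was 5.51, 5.82, 5.82 and 5.56 with saline and 6.10, 5.66, 5.70 and 5.75 with METH (exact permutation p = 0.4, adjusted 0.8). Peaks of 2000 bp or more numbered 7 to 16 per library and their share did not differ beyond the spread (exact permutation p = 0.914, adjusted 0.914).

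The median peak width was 325, 329, 329 and 329 bp in saline replicates 1 to 4 and 334, 331, 340 and 331 bp in METH replicates 1 to 4. The groups did not overlap, by a gap of 2 bp, and METH replicate 3 was widest. The exact permutation p was 0.0286, the smallest 4 against 4 libraries allow, and it was 0.114 after adjustment over the 4 measures. The mean peak width did not separate the groups, at 409 to 428 bp with saline and 408 to 430 bp with METH.

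A peak was called in each of the 8 NAc libraries for 32145 OCRs and in none for 14811. The share with a peak in each library rose from 7.77% of OCRs under 400 bp to 92.0% of those of 2000 bp or more. A peak was present in 4 METH and 0 saline libraries for 72 OCRs (0.0733%) and in 4 saline and 0 METH libraries for 130 (0.132%). Among the former, the largest differences in level were on chromosome 11 (87434427 to 87434942), with 2.73, 1.12, 1.43 and 3.31 CPM in saline replicates 1 to 4 and 7.35, 5.72, 6.65 and 4.59 CPM in METH replicates 1 to 4, and on chromosome 12 (16150570 to 16151267), with 1.63 to 3.02 CPM with saline and 4.66 to 7.05 CPM with METH. METH replicate 3 did not stand out at either, and the log2 fold changes of 1.49 and 1.33 were 1.44 and 1.33 without it. Among the latter, an OCR on chromosome 13 (26278679 to 26279375) that was NAc-specific had 13.6, 7.44, 7.02 and 9.86 CPM with saline and 3.83, 4.43, 3.42 and 4.04 CPM with METH, a log2 fold change of -1.27 (SE 0.35). The other, on chromosome 3 (123198005 to 123198619), had 7.33 to 10.4 CPM with saline and 4.23, 6.09, 1.2001 and 4.43 CPM with METH. Its log2 fold change of -1.14 was -0.83 without METH replicate 3.

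Gene names were available for OCRs that the study ties to a human counterpart carrying a trait-associated variant. They name human genes and not the nearest rat gene, and each OCR named below is tied to an intron of its human gene. The 814 such OCRs had a median log2 fold change of 0.03, against -0.01 over the table, and 0 were DARs. At an unadjusted p under 0.05 (edgeR), 11 of the 814 were higher and 5 lower, which are 1.35% and 0.614% against 1.03% and 1.42% of OCRs in the table. Without METH replicate 3 these were 7 and 4, and the median was -0.002 against -0.04 over the table. The 814 were wider and more accessible than the table, with medians of 798 bp and 6.99 CPM against 662 bp and 4.39 CPM. Accessibility classes 7 and 8, with medians of 6.22 and 8.59 CPM, had 1.05% and 0.947% higher and 1.02% and 0.692% lower at this limit. Named human genes were tied to 588 of the 814 OCRs, and 6 gene lists and 6 trait groups were described.

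Genes of striatal neurons and their signalling had 23 OCRs with a median log2 fold change of -0.00. Of these, 0 passed an unadjusted p under 0.05 (edgeR), where the table had 1.03% higher and 1.42% lower. At such shares, short lists such as this one and those below can hold 0. The largest change was at an OCR of PDE2A (chromosome 1, 166576131 to 166576738), a phosphodiesterase that degrades cyclic nucleotides, with 6.52, 4.99, 6.27 and 5.24 CPM in saline and 5.04, 4.25, 1.94 and 3.42 CPM in METH libraries. The ranges overlapped only between 4.99 and 5.04 CPM, and METH replicate 3 was lowest. Activity-regulated genes had 13 OCRs, 0 of them at this limit and a median of -0.05. Their largest change was at PER2, a repressor of the circadian clock (chromosome 9, 98594680 to 98594912), with 2.82, 2.65, 1.36 and 1.70 CPM in saline and 3.53, 2.49, 3.42 and 3.73 CPM in METH libraries, which overlapped.

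Receptors for glutamate and GABA and their partners had 12 OCRs with a median of -0.01. Of these, 0 were at an unadjusted p under 0.05 (edgeR), where the table had 1.03% higher and 1.42% lower. The OCR of NETO1, an auxiliary subunit of kainate receptors, is on chromosome 18 from 83486473 to 83487024. It had 5.84, 5.40, 7.43 and 6.24 CPM in saline and 3.02, 4.71, 0.923 and 5.21 CPM in METH libraries. The groups were apart by a narrow margin with METH replicate 3 lowest, and the log2 fold change of -0.84 (SE 0.54) was -0.53 without it. The study names this OCR as a DAR that is less open in NAc, but it was not a DAR here at the same limits.

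Among 15 OCRs of calcium and other channels, 1 was higher and 1 lower at an unadjusted p under 0.05 (edgeR), where the table had 1.03% and 1.42%, and the median was -0.04. The higher one belongs to CACNA1C, the pore-forming subunit of an L-type calcium channel, and its antisense gene CACNA1C-AS1 (chromosome 4, 150643830 to 150644892), which ATAC-seq cannot tell apart. It had 6.43, 6.21, 5.45 and 5.93 CPM in saline replicates 1 to 4 and 12.4, 10.99, 9.51 and 6.45 CPM in METH replicates 1 to 4, with a peak in each library. METH replicate 4 was level with saline replicate 1 and the other 3 METH libraries were well above. The log2 fold change was 0.71 (SE 0.28) and an FDR of 1.000, 0.72 without METH replicate 3, 0.88 in batch 1 and 0.49 in batch 2. The lower one, named after its values were seen, belongs to CACNA2D2, an auxiliary subunit of calcium channels (chromosome 8, 116211540 to 116212449). It had 3.99, 7.64, 5.11 and 2.16 CPM in saline and 2.52, 2.68, 2.12 and 2.80 CPM in METH libraries, and saline replicate 4 lay among the METH libraries. The OCR with the largest fold change in this list was that of FGF14, a modulator of voltage-gated sodium channels (chromosome 15, 110879504 to 110880412), with 1.83 to 4.70 CPM in saline and 0.906 to 2.33 CPM in METH libraries and a log2 fold change of -0.96.

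The 30 OCRs of adhesion and axon guidance genes had 1 lower and 0 higher at an unadjusted p under 0.05 (edgeR), where the table had 1.42% and 1.03%, and a median of -0.03. This was an OCR of UNC5C, a netrin receptor (chromosome 2, 247143661 to 247144636), with 14.2, 7.54, 10.1 and 14.95 CPM in saline and 5.44, 10.99, 2.49 and 5.83 CPM in METH libraries. METH replicate 2 lay among the saline libraries and METH replicate 3 was lowest, and the log2 fold change of -0.92 was -0.66 without it. The 18 OCRs of glia and lipid handling genes had 0 at this limit and a median of -0.02. Their largest change was at DTNA, a member of the dystrophin-associated complex (chromosome 18, 14508353 to 14509205), with 2.47 to 3.70 CPM in saline and 1.81, 3.14, 6.65 and 3.65 CPM in METH libraries. It rested on METH replicate 3, since its log2 fold change of 0.39 was -0.02 without this library.

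By trait, the median log2 fold change was -0.01 for 43 OCRs tied to alcohol use, 0.05 for 19 tied to drug use, 0.10 for 56 tied to sleep, 0.04 for 228 tied to mental or behavioural disorders, 0.03 for 213 tied to cognition and 0.04 for 71 tied to Alzheimer's disease. With METH replicate 3 left out these were -0.02, -0.06, 0.01, 0.01, 0.02 and 0.01. Members at an unadjusted p under 0.05 (edgeR) were 2 higher and 0 lower for drug use, 3 and 2 for mental or behavioural disorders, 6 and 1 for cognition, and 0 for alcohol use, sleep and Alzheimer's disease. For cognition these were 2.82% and 0.469%, for mental or behavioural disorders 1.32% and 0.877%, and for drug use 10.5% and 0% of 19 OCRs. The table had 1.03% and 1.42%. Without METH replicate 3 the counts were 1 and 0 for drug use, 2 and 0 for mental or behavioural disorders and 3 and 1 for cognition. They were then 1 and 0 for sleep and 0 for alcohol use and Alzheimer's disease, where the table had 0.778% and 1.29%.

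The METH effect in NAc was also set against that in each other region as an interaction in the same edgeR model. The difference passed the DAR thresholds for 0 OCRs (0%) against DG, CA and SVZ, with an unadjusted p under 0.05 for 2743 OCRs (2.79%), 1080 (1.10%) and 2433 (2.48%), respectively. Leaving out METH replicate 3 gave 0 as well, with 2861, 1123 and 2419 at the unadjusted limit.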

How the data were processed

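Nuclei of frozen punches were transposed following omni-ATAC. The authors processed each library with the AIAP pipeline at default parameters, called peaks per library without pooling and merged OCRs with mergeBed. Coordinates are in rat build rn6. Bedtools is named in the submitters' processing notes, and tool versions and any shift of insertion sites are not given in the sources used here. Values in the deposited count table are whole reads in each OCR with no normalization. In the peak lists the authors give fold enrichment over background as a ratio and −log10 of p and q values. Peak names carry an animal number and a library tag whose letter case differs between replicates 1 and 2 (called batch 1) and replicates 3 and 4 (called batch 2), and whether these are sequencing batches is not given. The 8 NAc libraries came from 8 rats.

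Counts were fitted with edgeR 4.0.16 in R 4.3.3 (upper-quartile library sizes, 8 groups over 29 libraries, trended dispersion, robust quasi-likelihood F test, Benjamini-Hochberg FDR over 98237 OCRs), and DESeq2 1.42.0 was an alternative. The study's RUVr correction has no stated number of factors, so 5 factors were an alternative. CPM used the same library sizes, with 0.5 added before log2. Single values per library were compared by two-sided exact permutation tests (scipy 1.17.1), for which 4 against 4 libraries give at least p = 0.0286. Within a batch, 2 against 2 libraries give at least 0.333, so batch values carry no test. Scripts were tested on simulated data, whose replicate spread was set below the common dispersion of 0.1507 in the real counts. Equal replicate numbers came from different rats, and the deviations of equally numbered libraries from their group means correlated at -0.007, -0.143, -0.121 and 0.423, so the numbers do not pair the libraries.

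Named OCRs were the 6 higher and 6 lower with the largest fold change at an unadjusted p under 0.05, a mean of 2 CPM and no overlap, the largest change (and any member apart at that p) in each human gene list, the 3 clusters and windows with the lowest p, and the 2 OCRs per direction with peaks in 4 libraries of one group and 0 of the other and the largest difference in CPM. The members and lists were chosen with earlier results of these data known. Human gene names came from the study's table of human counterparts, and its trait column was used as a label. An rn6 genome and annotation were not used here, so rat genes at OCRs, cell type markers and sequences were not analysed here. Each replicate was a separate rat, and 10.7 to 13.8 M counts per NAc library set the counting precision.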

Additional observations from a re-analysis of the deposited data

Results flagged for a closer look

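In 6 of 116 groups of 4 libraries, 1 library lay further from the others than Dixon's 95% critical value allows, and chance alone marks about 1 in 20 groups. Saline replicate 1 had a median peak width of 325 bp, where the other 3 saline libraries had 329 bp. In the cluster on chromosome 8 from 7720991, METH replicate 3 stood at 10.7 CPM above METH values of 7.75 to 8.16 CPM. In the window on chromosome 13 from 45003246, saline replicate 2 stood at 198.2 CPM above saline values of 156.1 to 161.2 CPM. At the OCR on chromosome 3 from 58152089, saline replicate 4 had 2.54 CPM and the other saline libraries 0.779 to 1.02 CPM. At the OCR on chromosome 9 from 89161623, METH replicate 4 had 8.86 CPM and the other METH libraries 2.86 to 3.88 CPM. At the OCR on chromosome 2 from 243916604, saline replicate 1 had 8.67 CPM and the other saline libraries 4.55 to 4.77 CPM. The causes were not tested.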

How the results depend on the processing

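Of the recomputed values, 28 changed sign, 12 lost and 0 gained significance, 7 counts moved by over 1.5 times, and 612 did none of these or, where there was no test, moved by less than 1 SD. All 12 were of the median peak width. Most of them left out 1 library, where the smallest exact p is 0.0571, so the loss was fixed in advance. No exact test could gain significance there either. The 612 include the difference between neighbour classes in median log2 fold change, -0.01 as reported, which was 0.07 in batch 2, 0.05 without saline replicate 1, 0.03 without METH replicate 4 and 0.00066 with the replicate block. DARs numbered 0 under TMM, DESeq2, a filter on low counts, the 8 NAc libraries alone, the replicate block, a batch term and without each library in turn. With 5 RUVr factors there were 20 DARs, all lower, and 3 of the OCRs named above were among them (chromosome 2 from 66689019, chromosome 16 from 78405062 and chromosome 3 from 123198005), and 14787 OCRs had an unadjusted p under 0.05. That number was 2404 as reported, 5062 in the 8 NAc libraries alone, 4871 with the replicate block, 5074 with a batch term and, in an alternative chosen after seeing the data, 6239 in the 7 NAc libraries other than METH replicate 3. It ranged from 1587 (without METH replicate 1) to 3339 (without METH replicate 4). Under the block 0 OCRs were DARs too, and not every METH library correlated best with the saline library of its number. The width of peaks, 6 bp more with METH, was 5.5 and 6.5 bp more in batches 1 and 2 and 4 to 7 bp more without 1 library, where no exact test can pass. It was 9.75 bp more for peaks with −log10 q above 5 (exact permutation p = 0.0571), and 5.03 bp more as a mean width, chosen after seeing the data. Differences in share of counts (percentage points) that changed sign were those of OCRs of 700 to under 1000 bp (0.00452 in batch 2, -0.180 to 0.176 without 1 library), of accessibility class 2 (-0.240 to 0.00746 without 1 library), class 8 (0.0592 in batch 1) and class 9 (-0.0967 in batch 2, -0.172 to 0.172 without 1 library), of 0 neighbours (-0.0807 in batch 2, -0.00400 within 200 kb, -0.0345 to 0.101 without 1 library), 1 to 2 neighbours (-0.00305 in batch 2, -0.00627 within 200 kb), 3 to 5 neighbours (-0.204 within 20 kb) and 6 or more neighbours (0.00024 within 200 kb), and of OCRs higher in SVZ than in hippocampus (0.212 in batch 1, -0.602 to 0.0650 without 1 library, the latter without METH replicate 3). The difference in peak number was 5318 in batch 1, and -10539 to 2119 without 1 library, the latter without saline replicate 3. The difference in percentage of wide peaks was -0.00470 in batch 1 and -0.00212 to 0.00374 without 1 library. The log2 fold change of the DTNA OCR lay between -0.017 (without METH replicate 3) and 0.62 (without METH replicate 1). The causes of these changes were not tested. The median level of 4.39 CPM and the median SE of 0.39 limit what single OCRs can show.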
